A study of Cucumis sativus with 6 samples.

Results

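The genes described here are 76 annotated cucumber genes whose transcripts averaged at least 2-fold lower in pollinated ovaries that lacked functional *CsALC* than in WT ovaries. They were chosen on the 2 group means of the deposited table, out of 23955 genes. A member had to carry a reference identifier starting with Csa, counts above 0 in both groups, a mean over both groups of at least 10 normalized counts and a WT mean at least 2 times the *Csalc* mean. Of the 17958 reference genes that met the conditions on counts, 90 (0.501%) were at least 2-fold lower, and 14 of these were left out by name and are not members. The difference between WT and *Csalc* is thus what chose these genes. It is given below as a description, without a test, and the same holds for every measure that sets the 2 groups against each other.

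Ovaries with their stigma were taken from the cucumber inbred line XTMC (*Cucumis sativus*) 32 h after pollination, and 3 libraries were made for WT and 3 for *Csalc*. The WT plants carried no edit, and the *Csalc* plants (genotype label Csalc-/-) were homozygous for a CRISPR-Cas9 frameshift in the first exon of *CsALC* (Csa2G356640). Several *Csalc* lines were made in the study, and the sources used here do not say whether the 3 libraries came from 1 line or from different ones. The tissue holds ovary, stigma, pollen and pollen tubes together, so fewer cells of a type and less RNA per cell cannot be told apart. In the study far fewer pollen tubes entered ovules in *Csalc* than in WT, so the groups also differed in how many ovules were reached. Effects of the edit in the ovary and of this difference in fertilization cannot be told apart here.

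ALC is a basic helix-loop-helix transcription factor that is known from *Arabidopsis*, where it takes part in fruit opening, and SPT is its closest relative. In a pollinated ovary, pollen tubes grow down the transmitting tract, leave it near the ovules and deliver sperm cells. Small secreted peptides, among them those of the RALF family, take part in the signalling between the pollen tube and the surrounding tissue. The edit of the *Csalc* plants is set by the guide RNA. Its cloning oligo is shown here 5′ to 3′, with the 19 bases of the guide in capitals and the overhang for cloning in lower case.
CsALC guide oligo: attgAACAGAGGTGGAATCGGGC

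The deposited table gives only a mean per group, but a mean of 3 libraries is made of whole reads, each divided by the size factor (relative depth) of its library, and this let the reads per library be worked out for most members. Library a of a group has the largest size factor and library c the smallest, and which replicate number each carries is not known. The letters are ranks within a group, so the same letter in WT and *Csalc* does not mean a matched pair. The size factors were near 1.07 for *Csalc*, whereas WT a, b and c had 1.06, 1.01 and 0.782. A single combination of reads was found in both groups for 67 members. The other 9 allow several combinations in at least 1 group, and for these the value of a library is not known. *CsALC* itself averaged 238 normalized counts in *Csalc* and 395 in WT, with 437, 371 and 376 in WT a, b and c, and 3 combinations are possible for its *Csalc* mean. A frameshift need not remove the transcript, so this level is a weak check of the labels. *CsSPT* (Csa6G491000), which acts in the transmitting tract, averaged 242 in *Csalc* and 222 in WT. *CsRALF19* (Csa6G484570) and *CsRALF4* (Csa6G199790) are abundant in pollen but are also expressed in the ovary, the transmitting tract included, so their level does not measure pollen alone. The first averaged 55.3 normalized counts in *Csalc* against 608 in WT, and the second 0.932 against 8.31.

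Most members were weakly expressed and not far past the threshold. Their WT means ran from 14.9 to 2759 normalized counts with a median of 35.4, and their *Csalc* means from 0.931 to 755 with a median of 10.1. Over all 17958 reference genes with a mean of at least 10, the medians were 559 in WT and 560 in *Csalc*. The median log2 ratio of *Csalc* to WT was -1.31 over the members and -0.01 over those reference genes. The fold was from 2 to under 3 in 49 members, from 3 to under 4 in 10, from 4 to under 8 in 8, and at least 8 in 9. A WT mean of at most 50 was found in 52 members, and 11 members exceeded 200.

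**Figure D1:**
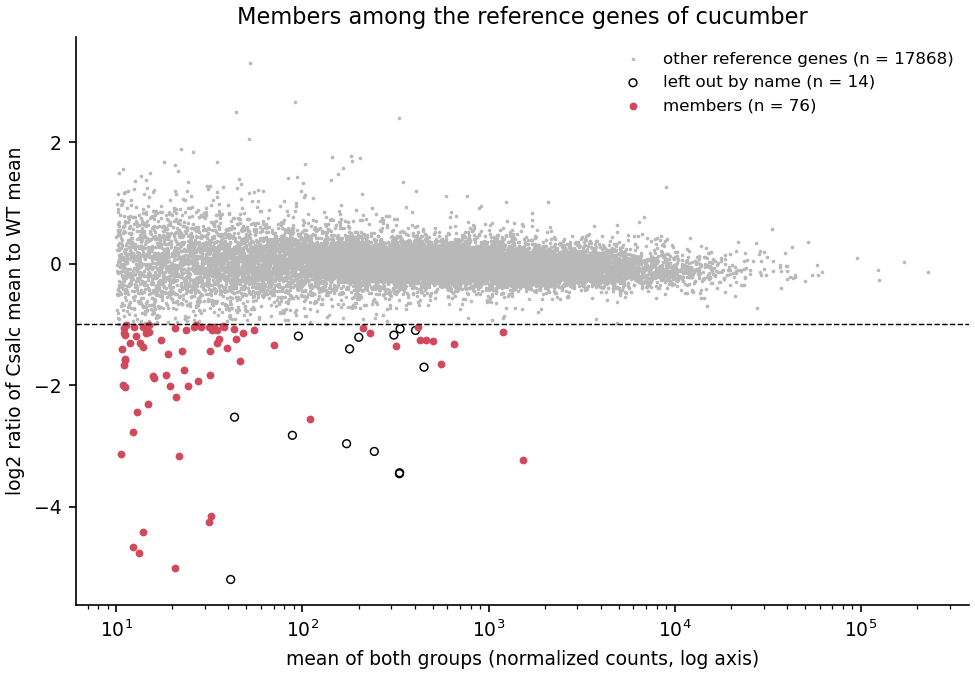
Log2 of *Csalc* over WT, from the group means (vertical axis), against the mean of both groups in normalized counts (horizontal log axis) for the 17958 reference genes with a mean of at least 10. Each point is 1 gene, the dashed line is the 2-fold threshold that chose the 76 members, and most members lie at the left, where the other genes also scatter most.

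Of the 21 reference genes annotated in the study's list of changed genes, 5 are members. That list was drawn from these same libraries, so it is no independent evidence of a direction. Csa7G407810, listed as an unknown protein, had the lowest ratio of all members. It had 20.8, 57.3 and 42.2 normalized counts in WT a, b and c, against 0, 2.80 and 0.937 in *Csalc*. In reads this is 113 in WT and 4 in *Csalc*. The means differed 32.2-fold, and the exact 95% counting interval of the ratio of summed reads, scaled by depth, ran from 12.1 to 119. The lowest WT library was above the highest *Csalc* library by a wide margin.

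Csa4G102310, also an unknown protein, had 23.6, 31.6 and 15.4 normalized counts in WT a, b and c. Its 3 *Csalc* reads all lay in library a, so the *Csalc* libraries stood at 2.79, 0 and 0. The fold of the means was 25.3, with a counting interval from 8.50 to 129. In both unknown proteins all 3 WT libraries were above the *Csalc* libraries, and both are among the lowest ratios that the rule picked out.

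Csa7G073680 is annotated as a cytochrome P450, a haem enzyme of the large monooxygenase family that modifies hormones, lipids and defence compounds in plants. It had 136, 232 and 193 normalized counts in WT and 18.6, 54.1 and 22.5 in *Csalc*. The means were 187 ± 48.3 in WT and 31.7 ± 19.4 in *Csalc* (SD, n = 3), a log2 ratio of -2.56 with a standard error of 0.55. The means differed 5.90-fold. With 530 WT reads and 102 *Csalc* reads, the counting interval of the ratio of summed reads was narrow, from 4.73 to 7.31. WT b was the highest WT library and *Csalc* b the highest *Csalc* library.

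CsaUNG012530 is annotated as a thionin-like protein. Thionins are small cysteine-rich peptides best known for activity against microbes. This gene had 577, 763 and 611 normalized counts in WT and 309, 352 and 155 in *Csalc*, means of 651 ± 99.0 and 272 ± 104 (SD, n = 3) and a log2 ratio of -1.26 with a standard error of 0.34. Csa2G011490, a putative calcium-transporting ATPase, belongs to the P-type pumps that move calcium out of the cytosol. It had 55.7, 38.5 and 55.0 in WT and 14.9, 19.6 and 7.50 in *Csalc*, a log2 ratio of -1.83 with a standard error of 0.40. In both genes no *Csalc* library reached the lowest WT library. For the other 71 members no annotation was used here, and they are given by identifier.

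**Figure D2:**
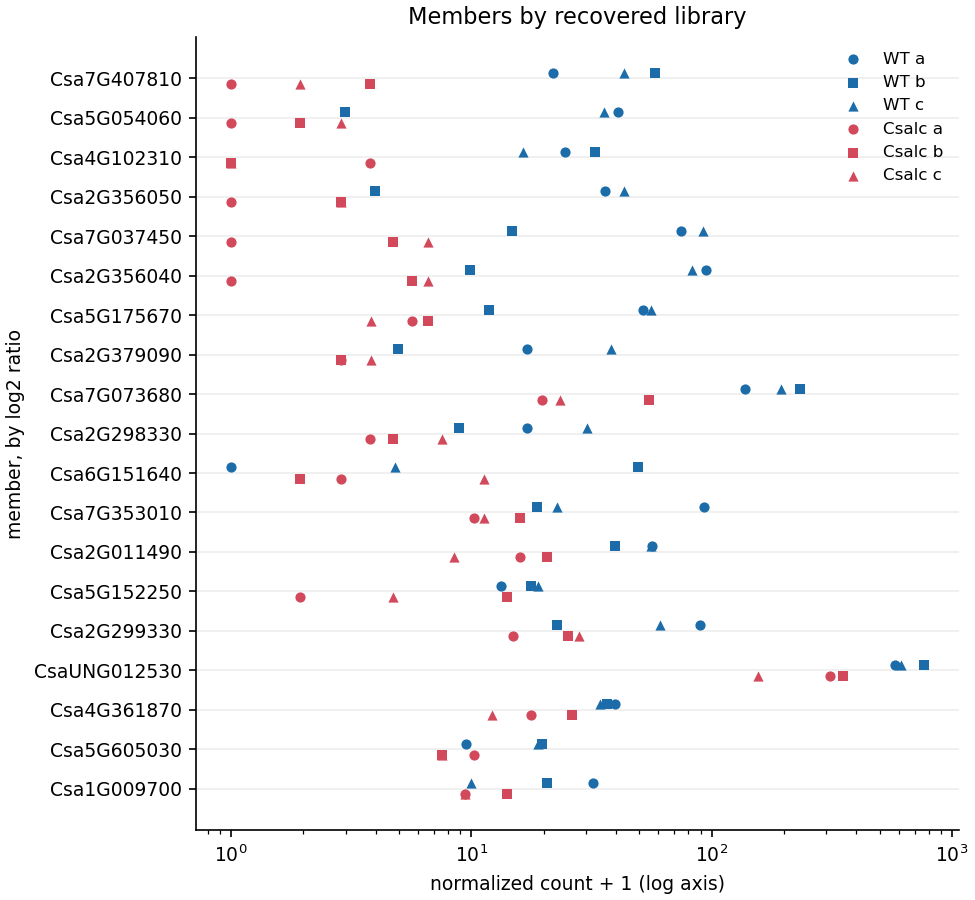
Normalized count plus 1 on a log axis in each recovered library of the 19 members that were named by the fixed rule and have a single combination of reads in both groups, ordered by log2 ratio. Blue marks are WT and red marks *Csalc*, with circles, squares and triangles for libraries a, b and c. WT b (blue squares) lies apart from WT a and c in 6 of the 8 top rows.

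A group of members was nearly silent in *Csalc* and low in only 1 WT library. Csa2G356040 had 93.5 and 81.9 normalized counts in WT a and c but 8.89 in WT b, against 0, 4.66 and 5.62 in *Csalc*. The identifier that follows it, Csa2G356050, showed the same shape at 35.0, 2.96 and 42.2 in WT and 0, 1.86 and 1.87 in *Csalc*. In both genes WT b was closer to the *Csalc* libraries than to the other WT libraries.

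Csa7G037450 had 73.7, 13.8 and 90.8 normalized counts in WT and 0, 3.73 and 5.62 in *Csalc*. Csa5G054060 had 39.7, 1.97 and 34.5 in WT and 0, 0.932 and 1.87 in *Csalc*. Csa5G175670 had 51.0, 10.9 and 55.0 in WT and 4.66, 5.59 and 2.81 in *Csalc*. Their group means differed 19.1-fold, 27.1-fold and 8.95-fold, and each of these folds averages 2 WT libraries far above *Csalc* with 1 close to it.

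The same pattern was counted over all members with a WT mean of at most 700, up to which every WT mean of the table has a single combination. A WT library under 1 in 3 of both others was found in 11 of these 71 members (15.5%), compared with 1.12% of the 10053 reference genes with a WT mean from 10 to 700. WT b was the low library in 9 of them (12.7%, against 0.318% of the reference genes), WT a in 2 and WT c in none. Among the reference genes with such a library it was WT a in 58, WT b in 32 and WT c in 23. The 9 members low in WT b spanned folds from 3.67 to 27.1, and 7 of them were among the 10 members with the lowest ratio. Summed over the 9, the normalized counts were 408 in WT a, 56.3 in WT b and 434 in WT c, and 17.7, 31.7 and 38.4 in *Csalc* a, b and c. WT b still exceeded every *Csalc* library in all but 2 of the 9. Where the low library was counted at under 1 in 2 of both others, 33.8% of the members and 3.37% of the reference genes had one. The reference genes were better expressed, as 6715 of the 10053 had a WT mean over 100, against 8 of the 71 members. Shares at a like level of expression were not compared, so these gaps are not shown to be particular to the members.

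The 2 *CsRALF* transcripts differed in WT b. *CsRALF19* was highest there, at 803 against 357 and 664 normalized counts in WT a and c, whereas *CsRALF4* was lowest there, at 2.96 against 6.61 and 15.4. The *CsRALF4* values rest on 3, 7 and 12 reads. Whether pollen content had a part in the low values of WT b was not tested.

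**Figure D3:**
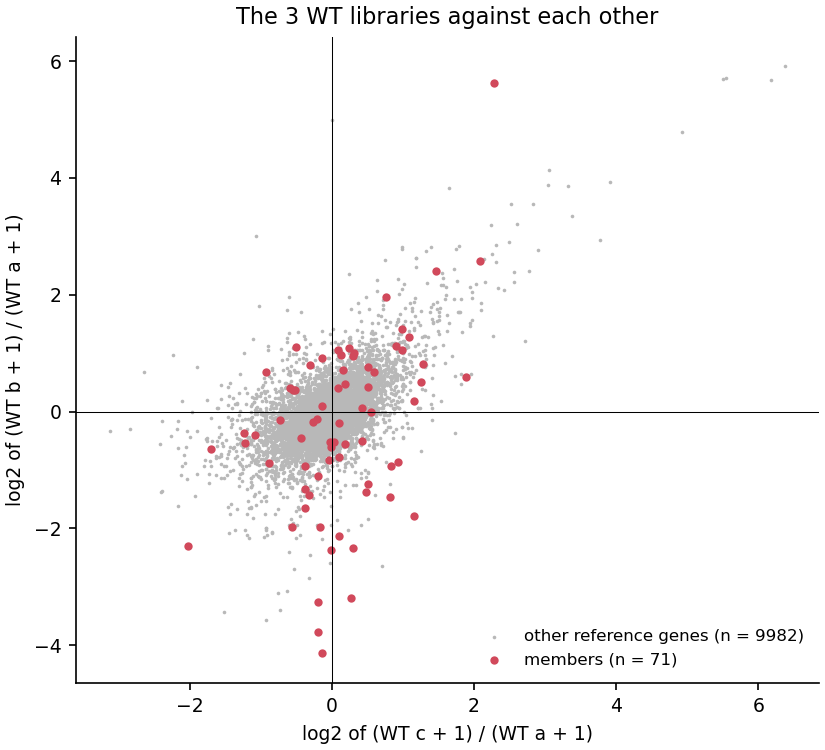
Log2 ratio of WT b to WT a (vertical axis) against that of WT c to WT a (horizontal axis), each with 1 normalized count added, for the reference genes with a WT mean from 10 to 700. Red points are the 71 members in this range, and the 9 that were low in WT b hang below the cloud, mostly near a horizontal value of 0.

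The opposite pattern, 1 WT library over 3 times both others, was found in 2 of 71 members (2.82%) and in 0.189% of the reference genes. Because the rule asks for a high WT mean, it favours genes with 1 high WT library. The reference genes were also better expressed, so the 2 shares are given as a description only. Csa6G151640 had 0, 48.4 and 3.84 normalized counts in WT and 1.86, 0.932 and 10.3 in *Csalc*. Its membership rests on WT b, and without that library its log2 ratio turned from -1.99 to 1.19. It is also 1 of the 2 members in which WT a was the low library. Csa7G353010 had 91.6, 17.8 and 21.7 in WT and 9.31, 14.9 and 10.3 in *Csalc*, and WT b and c were only slightly above the highest *Csalc* library. Neither pattern was met by 59 of the 71 members.

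Among the better expressed members WT b was more often the highest library than the lowest. Of the 8 members with a WT mean over 100 and up to 700, WT b was the highest WT library in 7 (87.5%), against 26.2% of the reference genes in that range. This cut at 100 was chosen after the values had been seen. Csa5G647250, above that range at a WT mean of 840, had 368, 1407 and 745 normalized counts in WT. Its *Csalc* mean of 268 allows 2 combinations of reads, in both of which every library lies from 85.3 to 499. Csa3G165650 had 428, 856 and 530 in WT and a *Csalc* mean of 254. Csa2G360570 had 304, 489 and 160 in WT and a *Csalc* mean of 144. The exception among the 8 was Csa5G623670, with 674, 613 and 408 in WT and a *Csalc* mean of 275. In the range of WT means over 100, the median ratio of WT b to the mean of WT a and c was 1.497 over the 10 members with a single combination and 0.974 over the reference genes up to 700.

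The 3 members with the highest WT means give no library values. Csa3G873800 averaged 2759 normalized counts in WT and 294 in *Csalc*, the largest fold (9.38) of the members above a WT mean of 200. For its WT mean 122 combinations of reads are possible, so the files do not tell whether all 3 WT libraries were high. Its 4 possible *Csalc* combinations put the libraries between 36.4 and 660. Csa1G597780 averaged 1644 in WT and 755 in *Csalc*, with 47 and 5 combinations. Csa5G187870 averaged 933 in WT and 373 in *Csalc*, and all 3 of its WT combinations contain a library that is over 2 times both others or one that is far below them. One of them puts WT b at 1438 and WT a and c at 691 and 670.

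Some members have neighbouring identifiers. Identifiers of this annotation are numbered by chromosome, but the positions themselves were not checked here. Csa2G028490 and Csa2G028500, next to each other in the table, had 551, 947 and 645 and 328, 635 and 403 normalized counts in WT a, b and c. Their *Csalc* means were 294 and 178, and their log2 ratios -1.28 and -1.36. The order of the WT libraries, b over c over a, was the same in both genes. Csa2G298330 and Csa2G299330 had 16.1, 7.90 and 29.4 and 88.8, 21.7 and 60.1 in WT, with log2 ratios of -2.03 and -1.38. WT b was lowest in both, and in Csa2G299330 it lay within the range of its *Csalc* libraries, 13.97, 24.2 and 27.2. Adjacent genes of 1 family can share reads, and how the authors treated such reads is not given in the sources used here.

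The adjacent pair Csa2G356040 and Csa2G356050 lies 11 and 10 identifiers before *CsALC*. Of the 9 genes between Csa2G356050 and *CsALC*, 7 had a mean of at least 10, and their log2 ratios ran from -0.08 to 0.65. Within 50 identifiers on either side of *CsALC*, 3 of 75 such reference genes (4.0%) were members, against 0.423% of all, and the median log2 ratio there was -0.02. The window was chosen after the pair had been seen, and the pair makes up all but 1 of these members, so this share is largely set in advance. By identifier, 18 of the 76 members were numbered to chromosome 5 (23.7%, against 13.3% of the reference genes with a mean of at least 10) and 14 to chromosome 2 (18.4% against 12.2%). Chromosome 3 held 8 (10.5% against 20.9%), chromosome 1 held 8 (10.5% against 14.5%) and chromosome 4 held 6 (7.89% against 12.0%). The shares were closer for chromosome 6, with 12 (15.8% against 16.7%), and for chromosome 7, with 9 (11.8% against 9.90%), and 1 member has no chromosome number.

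All WT libraries were above all *Csalc* libraries in 42 of the 67 members with recovered reads (62.7%), compared with 5.26% of the 4338 reference genes with recovered reads and a mean of at least 10. Since the rule asks for a 2-fold difference of the means, this share is high by construction. The groups overlapped in the other 25 members. Of these, 21 had a fold under 3, and their median WT mean was 21.9 normalized counts. A single WT library lay at or below the highest *Csalc* library in 22 of them, WT b in 9, WT a in 8 and WT c in 5. In the other 3 more than 1 WT library did. In the 42 members that did not overlap, the lowest WT library was at the median 1.41 times the highest *Csalc* library, and it was at least 2 times as high in 5.

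Within *Csalc*, library b was most often the highest. It was the highest *Csalc* library in 36 of the 67 members (53.7%, against 33.9% of the 4338 reference genes), and *Csalc* a was the lowest in 33 (49.3%, against 32.5%). At equal reads the library with the larger size factor counts as lower, as in Csa1G009700 with 9 reads in both *Csalc* a and c. How many genes this concerns was not counted. In WT, library b was the lowest in 31 members (46.3%, against 35.1%) and the highest in 23 (34.3%, against 30.8%). The widest gap in WT was at library c, which was the lowest in 14 members (20.9%, against 36.9%). These reference genes were better expressed, with a median mean over both groups of 53.6 normalized counts against 20.6 in the 67 members. Without *Csalc* b, 11 of the 25 overlapping members would no longer overlap, and without *Csalc* a or c it would be 5 each. Leaving out a library can only remove overlap.

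**Figure D4:**
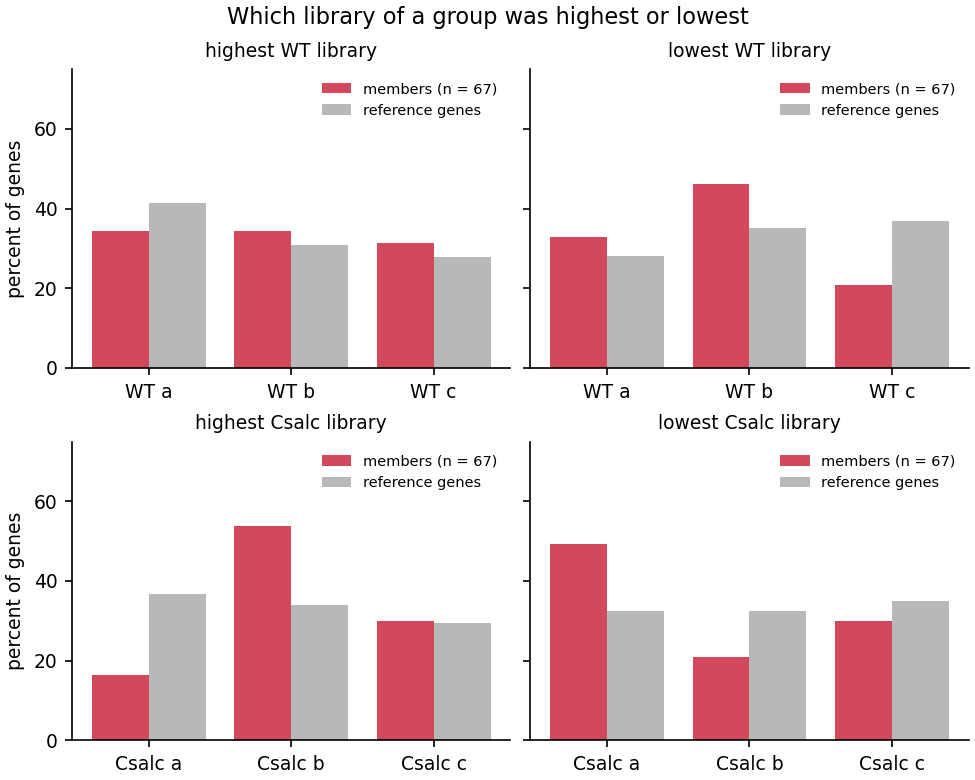
Percent of genes in which each library was the highest (left) or the lowest (right) of its group, for WT (top) and *Csalc* (bottom). Red bars are the 67 members and grey bars the 4338 reference genes with recovered reads, and the widest gaps are at *Csalc* b highest (53.7% against 33.9%) and *Csalc* a highest (16.4% against 36.6%).

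A single *Csalc* library over 3 times both others was found in 8 of the 62 members with at least 10 *Csalc* reads (12.9%, against 1.62% of the reference genes), and it was *Csalc* b in 6 and *Csalc* c in 2. In 6 of the 8 the groups overlapped. The reference genes were better expressed here too, and shares at a like level of expression were not compared. The gap is thus given as a description only. Csa5G152250, the second lowest member by mean, stood at 0.931, 13.1 and 3.75 normalized counts in *Csalc* a, b and c, and WT at 12.3, 16.8 and 17.9, which puts *Csalc* b at the WT level. Csa1G143280, named here after its values had been seen, was the best expressed of the 8. *Csalc* a, b and c held 55.9, 81.1 and 273, against 242, 337 and 276 in WT, and only *Csalc* c was at the WT level.

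Members near the limits of the rule differed little from genes just outside it. The 3 members nearest to the 2-fold threshold were Csa1G009700, Csa5G605030 and Csa4G361870, at 2.004-fold, 2.016-fold and 2.022-fold. The 3 genes that just missed it were Csa3G748850, Csa1G001530 and Csa1G537620, at 1.999-fold, 1.996-fold and 1.983-fold. Csa4G361870 had 38.7, 35.5 and 33.3 normalized counts in WT and 16.8, 25.2 and 11.2 in *Csalc*, without overlap. Csa1G009700 had 31.2, 19.7 and 8.95 in WT and 8.38, 13.1 and 8.43 in *Csalc*, and Csa5G605030 had 8.50, 18.8 and 17.9 in WT and 9.31, 6.53 and 6.56 in *Csalc*, both with overlap. By mean, Csa2G379090 and Csa5G152250 were the lowest members at 10.6 and 10.8, and Csa5G616370 and Csa1G537340 were just below the minimum at 9.96 and 9.73. Csa2G379090 had 16.1, 3.95 and 37.1 in WT and 1.86, 1.86 and 2.81 in *Csalc*, and is 1 of the 9 members low in WT b.

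Counting error alone is large at these levels. The 67 members with recovered reads held from 42 to 1862 reads over the 3 WT libraries (median 89) and from 3 to 874 over the 3 *Csalc* libraries (median 30). The exact 95% counting interval of the ratio of summed reads lay above 2 in 26 of them and reached below 2 in 41, with a lowest bound of 1.17. These intervals cover counting error only. Every member has a fold of at least 2 by the rule, so the 26 are no support for a difference. The share over the reference genes was not computed. The SD between WT libraries was at the median 2.40 times the SD that counting alone gives, against 1.43 over the reference genes, and in *Csalc* it was 1.55 times, against 1.76. Choosing genes on a high WT mean and a low *Csalc* mean can itself shift both spreads. They are thus not taken as a trait of the members. The standard error of the log2 ratio, from the spread between libraries, had a median of 0.59 and ran from 0.10 to 1.62. The narrowest was that of Csa2G238830, named here for that, with 42.5, 45.4 and 38.4 normalized counts in WT and 18.6, 21.4 and 21.6 in *Csalc*. Its log2 ratio was -1.04, and its counting interval still ran from 1.52 to 2.83. It was picked as the lowest of 67 standard errors, so its small spread does not show a precise difference. The widest standard error was that of Csa6G151640. Membership also depended on single libraries. Without *Csalc* b the same rule found 140 genes, 67 of the 76 members among them, and without *Csalc* c it found 117, with 55 of the members.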

How the data were processed

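RNA was extracted with TRIzol from 3 WT and 3 *Csalc* ovary samples. After quality control, read pairs were mapped by the authors to Chinese Long V2 and counted per gene. The authors normalized these counts and deposited 1 table of group means, used here as a signal that is never negative. STAR and DESeq2 are named in the submitters' processing notes, and their versions are not given in the sources used here. The deposited columns of fold changes, p-values and calls hold the authors' own comparison and were not used. The mutant column is headed spt2 and was taken as *Csalc*, because a supplementary table of the study prints the same values under that name. Whether the replicates came from separate plants is not stated.

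Each mean up to 700, and those of members above it, was searched for all combinations of whole reads over 3 libraries. All 13242 *Csalc* means and all 13314 WT means up to 700 matched at least 1, and 55.6% and 100% a single one, in *Csalc* mostly at low means. The search was tested on simulated data. Values are reads divided by the size factor, SDs are over 3 libraries, and standard errors of log2 ratios were propagated from them. Counting intervals are exact (Clopper-Pearson, 95%, scipy 1.17.1) for the ratio of reads summed over the libraries of each group, scaled by the summed size factors. This ratio can differ somewhat from the fold of the means.

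The members and lists were chosen with earlier results of these data known. Named members are those annotated by the study, the 6 with the lowest ratio, the 6 with the highest WT mean, the first 5 by WT mean among members with 1 low WT library, with 1 high WT library and with neither, those with consecutive identifiers and those at the limits of the rule. None of the 76 members matched the RefSeq table used here, so no coordinates or sequences of members are given. Alternatives changed the minimum mean, the fold, the scaling, the pseudocount, the pattern limits and the libraries included.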

Additional observations from a re-analysis of the deposited data

How the results depend on the processing

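The number of members moved with the limits of the rule. It was 148 with a minimum mean of 5, 43 with a minimum of 20, 27 at a 3-fold threshold and 353 at a 1.5-fold threshold, compared with 76. With the groups rescaled to equal totals it was 64, with the median of all genes set to 0 it was 74, and with a pseudocount of 1 it was 66. Leaving out 1 recovered library at a time gave from 84 to 140 genes, with genes without a single combination keeping their deposited means. The median log2 ratio of the genes chosen ran from -2.20 at the 3-fold threshold to -0.76 at the 1.5-fold threshold, which the threshold itself sets, and from -1.38 to -1.22 when 1 library was left out. The number of members without overlap was 42, became 39 with libraries scaled by their recovered reads, 50 and 42 of 76 with the most even and the least even combinations, and from 47 to 53 when 1 library was left out. Leaving out a library can only keep or raise this number, so that range is no check of it. A WT library counted as low at under 1 in 2 of both others was found in 24 members, at under 1 in 4 in 10 and with the other scaling in 12, compared with 11. A high WT library counted at over 2 times was found in 8 members, compared with 2. A high *Csalc* library was found in 18 at over 2 times and in 5 at over 4 times, compared with 8. These patterns need all 3 libraries, so none was left out there. Of 197 log2 ratios of 28 named members under other settings, 188 moved by less than the spread between libraries, 8 moved further, all 8 towards 0 with a pseudocount of 10, and 1 turned its sign. The log2 ratio of Csa6G151640 ran from -3.64 without *Csalc* c to 1.19 without WT b. No paired analysis was possible because the deposited columns carry no replicate numbers. Depth limits the members with few *Csalc* reads, 5 of which had no *Csalc* library with over 3 reads.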
